A study of Mus musculus with 34 samples.

Results

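Epiblast stem cell (EpiSC) lines of the inbred mouse strain C57BL/6J were compared with each other, and the endoderm made from the same lines was then compared in the same way. Lines 4, 1 and 44 formed one set and lines 2 and 5-1 the other. The sets were chosen by the EpiSC levels of Sox17, Cer1 and Gata6, which are markers of endoderm, so every difference between the sets in EpiSC is given as a description with no test. The 5 lines gave 5 EpiSC and 5 definitive endoderm (DE) libraries, which are 10 of the 34 libraries in the series. All 5 lines had the genotype C57BL/6J, and the labels named no transgene, deletion or other allele in any of them.

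The lines were embryonic stem cells converted to EpiSC and kept at low passage on irradiated mouse embryonic fibroblasts, in FGF, activin A at 20 ng/mL and an inhibitor of tankyrase. For DE they spent 16 h in the GSK3 inhibitor CHIR at 3 µM with activin A at 40 ng/mL. A further 24 h followed in activin A at 100 ng/mL with LDN-193189, an inhibitor of BMP receptors, at 100 nM, and cells bearing CXCR4 were then collected on magnetic beads. The sort selects on the product of Cxcr4, one of the genes described below. The EpiSC and DE libraries were made with different kits, and levels are compared here only within a cell type. Each line is 1 library per cell type, so the spread between the lines of a set includes culture, sort and library together.

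EpiSC stand for the late epiblast, which activin and FGF hold in a pluripotent state. In the embryo the epiblast passes through the primitive streak, where strong Nodal signalling directs cells to definitive endoderm and to the node and notochord, and weaker signalling to mesoderm. Sox17, Gata4 and Gata6 are transcription factors of endoderm, and Cer1 is a secreted antagonist of Nodal and BMP made by anterior endoderm. EpiSC cultures are known to hold some cells that express genes of the streak and its descendants. In bulk RNA, more cells of such a type and more RNA per cell cannot be told apart.

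The marker level, which is the mean over the 3 markers of log2 CPM (counts scaled to the size of the library), was 4.81 in line 4, 4.98 in line 1, 4.55 in line 44, 2.01 in line 2 and 0.66 in line 5-1. The lowest line of the first set and the highest of the second thus stood apart by more than the range within either set. Among the 12 EpiSC libraries of other strains the level ran from 0.97 in a NOD/ShiLtJ line to 6.54 in a CAST/EiJ line. Both CAST/EiJ lines lay above all 5 C57BL/6J lines. In the plot of marker level by strain, the 5 C57BL/6J lines spread from below the lowest of the other lines to above all but the CAST/EiJ lines.

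**Figure D1:**
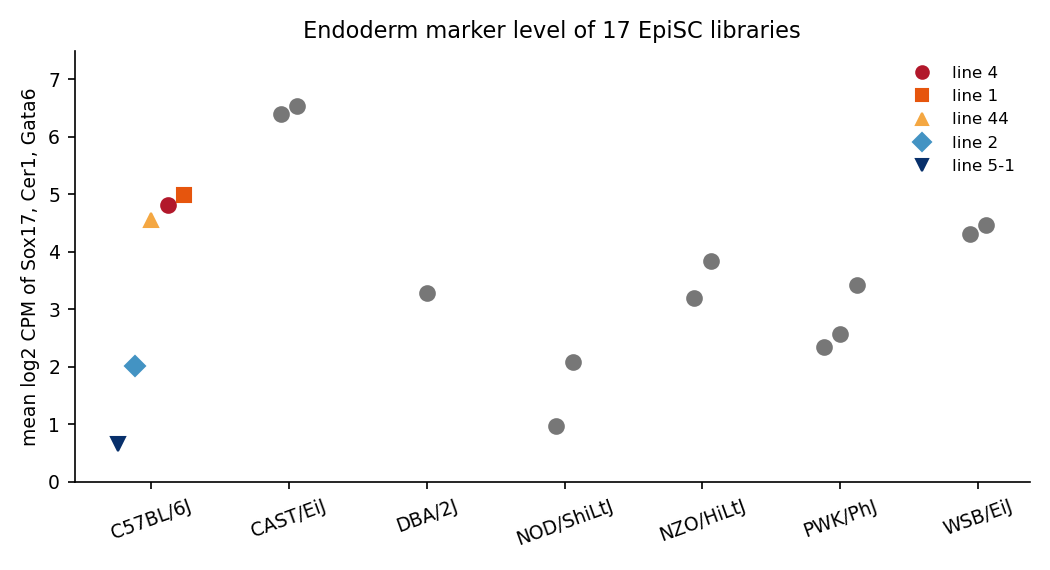
Mean log2 CPM of Sox17, Cer1 and Gata6 (y axis) in each of the 17 EpiSC libraries, by strain (x axis). Each point is 1 line. C57BL/6J lines 4, 1 and 44 lie between 4.55 and 4.98 and lines 2 and 5-1 at 2.01 and 0.66.

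The 5 EpiSC libraries held 26.3 to 31.1 M counts each, M standing for mega. In DE they were 61.0 M in line 4, 35.1 M in line 1, 26.5 M in line 44, 24.0 M in line 2 and 67.7 M in line 5-1. No pair of libraries within a cell type was a duplicate within sampling noise. Among them 2 DE libraries stood apart. In DE of line 5-1, genes of chromosome 8 had a median log2 CPM 0.42 above the median of the 5 lines, against -0.01 to 0.04 in the other 4 lines. DE of line 2 had the highest levels of the fibroblast and interferon lists and of Pou5f1, and 1.11% of its counts were mitochondrial against 0.630% to 0.739% in the other 4.

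Sox17 was at 10.3 CPM in line 4, 10.1 in line 1 and 10.7 in line 44, and at 1.54 in line 2 and 0.702 in line 5-1. Cer1 was at 153, 181 and 95.7 CPM in lines 4, 1 and 44 against 15.4 and 3.77 in lines 2 and 5-1. Gata6 was at 13.8, 17.03 and 12.5 CPM against 2.54 and 1.26. The 3 genes chose the sets, so their separation is not a finding, but its size was 9.36-fold for Sox17, 17.97-fold for Cer1 and 7.72-fold for Gata6 between mean log2 levels.

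Other genes of definitive endoderm separated the sets in the same direction. A gene is called higher or lower here when the values of the sets did not overlap and the means of log2 CPM differed at least 2-fold. Of 18 genes of the definitive endoderm list, all of which passed the filter on low counts, 10 were higher in lines 4, 1 and 44 and 0 were lower. The median difference of the list was 1.57 on the log2 scale, beside -0.0019 over all 17868 genes. Over all genes, 880 (4.93%) were higher and 513 (2.87%) lower by the same rule. Since the sets were chosen in these libraries, nothing is read from these shares.

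Gata4, the partner of Gata6 in endoderm, was at 9.52, 15.8 and 10.2 CPM in lines 4, 1 and 44 and at 2.77 and 1.29 in lines 2 and 5-1. Cxcr4, the chemokine receptor used to sort DE, was at 22.5, 31.0 and 14.2 CPM against 2.39 and 3.11. Lhx1, a LIM homeobox factor of the anterior streak and its endoderm, was at 124, 205 and 95.4 CPM against 24.3 and 7.95. Lhx1 had the largest difference of the list, 9.62-fold. Gsc, a homeobox factor of the organizer, was at 12.7, 10.8 and 12.5 CPM against 3.66 and 0.887. Hhex, a homeobox factor of anterior endoderm, was at 17.4, 30.1 and 12.9 CPM against 4.97 and 4.95. Foxa1, a forkhead factor of endoderm, was at 17.4, 27.3 and 12.1 CPM against 2.50 and 2.51. Line 1 had the highest value for each of these genes except Gsc, and the low lines were close to each other for Hhex and Foxa1 and apart for Lhx1 and Gsc. Shisa2, Sp5, Rab38 and Prdm1 were the other 4 members that were higher, by 2.12, 1.34, 1.66 and 1.80 on the log2 scale.

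The other 8 members of the list did not meet the rule. Foxa2, a forkhead factor shared by endoderm, node and notochord, was at 43.4, 53.5 and 42.4 CPM against 40.8 and 17.5, and its difference of 0.79 lay just under the threshold of 1. Epcam, the epithelial adhesion molecule, was at 270 to 325 CPM in the first set and at 269 and 279 in the second. Trh, which encodes thyrotropin-releasing hormone, had its highest value, 1183 CPM, in line 44 and its lowest, 87.9 CPM, in line 1, both in the first set. The lowest difference of the list was -0.47.

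Of 12 genes of the node and notochord, a list put together after values were seen, 11 passed the filter. Of these, 5 were higher (Noto, Shh, T, Nog and Pkd1l1), 0 were lower and 6 met neither rule. Shh, the ligand secreted by node and notochord, was at 20.3, 19.5 and 8.93 CPM in lines 4, 1 and 44 against 1.31 and 1.33. Noto, a homeobox factor of the node, was at 6.23, 8.88 and 1.10 CPM against 1.04 and 0.037. Line 44 was close to line 2 for Noto, so the gap rests on lines 4 and 1. Pkd1l1, a node protein that takes part in left-right patterning, was at 66.8, 108 and 34.03 CPM against 13.7 and 4.03. Of 20 genes of motile cilia that passed the filter, a list also made after values were seen, 10 were higher and 0 lower, with a median of 1.49. Dnah5, an outer dynein arm heavy chain, was at 14.4, 21.7 and 2.78 CPM against 1.85 and 0.776, again with line 44 nearest to the low lines. Foxj1, the regulator of motile cilia, was at 36.5, 70.6 and 27.5 CPM against 31.3 and 9.17 and overlapped. The levels of lines 4 and 1 thus stood above line 44 for both lists, whereas the 3 lines were close for definitive endoderm, as the plot of list levels by line shows.

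Of 8 genes of the list of anterior secreted antagonists, 5 were higher and 0 lower, beside 4.93% and 2.87% of all genes. Nog, Shisa2 and Dkk1 are also members of other lists counted here. Dkk1, an inhibitor of Wnt, was at 15.8, 17.2 and 8.60 CPM against 1.35 and 0.850. Nog, an inhibitor of BMP, was at 16.6, 7.88 and 2.56 CPM against 0.501 and 0.444. Sfrp1, Frzb and Shisa2 were the other members that were higher. Of 12 genes of the Nodal pathway, 2 were higher, namely Lefty2 and Cfc1, and 0 were lower. Nodal itself was at 48.4, 59.3 and 56.5 CPM against 77.4 and 103, which is a difference of -0.71.

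Genes of the primitive streak were split. T, the T-box factor brachyury of streak and notochord, was at 361, 616 and 292 CPM in lines 4, 1 and 44 against 146 and 110. Eomes, the T-box factor of anterior streak, had the opposite order, at 33.5, 61.1 and 55.2 CPM against 96.5 and 123. Mixl1, Evx1 and Cdx2 were higher beside T, while Fgf8, Nkx1-2 and Sp8 were lower beside Eomes, so 4 of the 10 members that passed the filter went each way. Of 11 Wnt targets, Sp5, Lgr5, Rnf43 and Dkk1 were higher and Axin2 and Sp8 lower. Lgr5, a receptor for R-spondins, was at 53.8, 85.6 and 28.2 CPM against 13.4 and 5.21.

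Most core pluripotency genes met neither rule, but 9 of the 11 that passed the filter had a negative difference. The median of the list was -0.33. Its mean log2 CPM was 5.79, 6.02 and 6.06 in lines 4, 1 and 44 against 6.44 and 6.38, with no overlap. Nanog, a core factor of pluripotency, was at 44.3, 78.2 and 94.6 CPM in lines 4, 1 and 44 against 139 and 173. Nanog and Dppa2 were lower, and the other 9 of 11 core genes that passed the filter were neither higher nor lower. Pou5f1, which encodes Oct4, was at 522, 483 and 486 CPM against 671 and 650, with no overlap and a difference of -0.41. Of 12 genes of the primed epiblast, Cdh2 was higher and Foxd3 lower. Foxd3, a forkhead factor of the epiblast, was just past the threshold at -1.03, and Sox2 of the core genes just short of it at -0.96. In extraembryonic endoderm, a cell type that also expresses Sox17 and Gata6, 1 of 13 members that passed the filter was higher, Hnf4a, at 0.220 to 0.500 CPM against 0 and 0. The summed level of the 13 was 1169, 794 and 1455 CPM in lines 4, 1 and 44 and 1287 and 2568 CPM in lines 2 and 5-1, with overlap, and their median difference was -0.64. Most of that sum came from genes of basement membrane and matrix that other cell types also express. Sparc, for one, was at 346, 179 and 510 CPM against 449 and 1035, and Lamb1 at 324 to 442 CPM over the 5 lines. At the low end, Sox7 was at 0.038 to 0.623 CPM and Amn at 0 to 0.308 CPM, Ttr had 0 counts in all 5 and Afp had 2 or fewer. The part of this cell type in the differences between the sets was not tested.

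**Figure D2:**
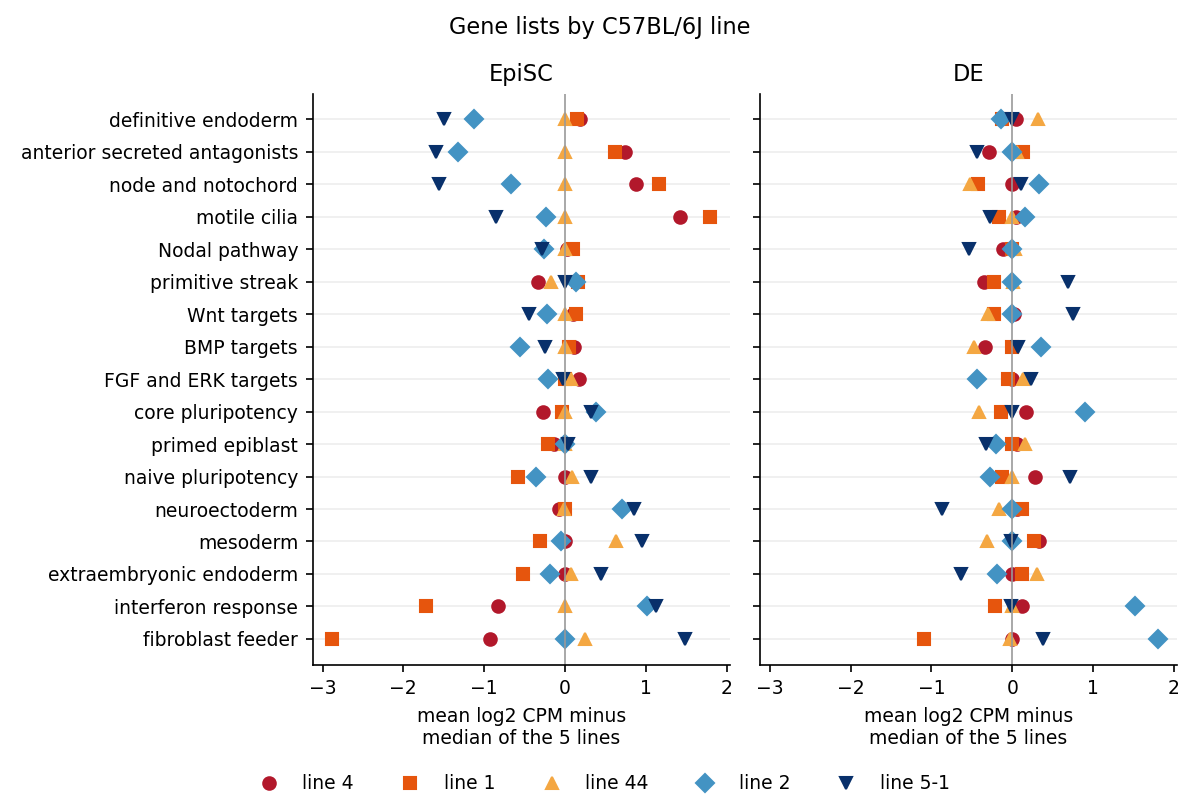
Mean log2 CPM of each gene list in each C57BL/6J line minus the median of the 5 lines (x axis), for 17 lists (y axis), in EpiSC and in DE. In EpiSC the definitive endoderm list separates lines 2 and 5-1 from the rest, and in DE it does not. Most of the 17 lists also separate the sets in EpiSC, among them the Nodal pathway, FGF and ERK target and core pluripotency lists. The lists of node and notochord, motile cilia and interferon response were made after values were seen.

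The 12 largest differences toward lines 4, 1 and 44 among genes with a mean of at least 3 on the log2 CPM scale in lines 4, 1 and 44, where they are high, were, in order, Pga5, Six3, Tph1, Cfc1, Cer1, Aplnr, F5, Lmx1a, Samd3, Dkk1, Shh and Cldn4. They ran from 27.4-fold for Pga5 to 10.9-fold for Cldn4. Pga5, a pepsinogen, was at 33.7, 38.8 and 23.6 CPM against 3.20 and 0.333. Six3, a homeobox factor of the anterior forebrain, was at 19.6, 11.1 and 3.95 CPM against 0.462 and 0.185. Tph1, the enzyme that starts serotonin synthesis, was at 32.7, 22.3 and 11.2 CPM against 1.81 and 0.444. Cfc1, which encodes the Nodal co-receptor Cryptic, was at 7.80, 13.6 and 7.08 CPM against 0.809 and 0.222. Aplnr, the receptor of apelin, was at 177, 151 and 24.8 CPM against 5.39 and 5.07. F5, coagulation factor V, was at 141, 138 and 47.5 CPM against 9.47 and 5.55. Line 44 was the lowest of the first set for all 6 of these genes.

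Promoters of 3 genes are shown, namely the marker Cer1, Six3, which had the second largest difference, and Cfc1, which comes first in the comparison with other strains further on. Each runs from 250 bases before to 50 after the start of the gene in RefSeq on GRCm38.p6 and is printed 5′ to 3′ on the strand of the gene. Capitals mark a match to a searched motif on either strand. The motifs were ATTGT for SOX factors, AATCCACA for FOXH1, CTTTGAT for TCF, AGATAA for GATA factors and GGTGTGA for T-box factors.
Cer1 (chr4:82885102-82885401, minus strand): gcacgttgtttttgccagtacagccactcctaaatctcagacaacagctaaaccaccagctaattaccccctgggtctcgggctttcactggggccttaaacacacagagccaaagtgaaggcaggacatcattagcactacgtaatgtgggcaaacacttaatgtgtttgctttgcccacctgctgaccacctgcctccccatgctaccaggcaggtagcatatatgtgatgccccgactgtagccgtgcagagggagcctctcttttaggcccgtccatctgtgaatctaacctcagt
Six3 (chr17:85620584-85620883, plus strand): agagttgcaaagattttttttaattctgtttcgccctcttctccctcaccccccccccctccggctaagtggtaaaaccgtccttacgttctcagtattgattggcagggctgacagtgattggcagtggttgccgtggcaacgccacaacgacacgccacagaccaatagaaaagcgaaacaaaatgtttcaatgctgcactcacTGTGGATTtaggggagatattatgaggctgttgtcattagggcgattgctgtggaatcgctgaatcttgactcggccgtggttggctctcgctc
Cfc1 (chr1:34535398-34535697, plus strand): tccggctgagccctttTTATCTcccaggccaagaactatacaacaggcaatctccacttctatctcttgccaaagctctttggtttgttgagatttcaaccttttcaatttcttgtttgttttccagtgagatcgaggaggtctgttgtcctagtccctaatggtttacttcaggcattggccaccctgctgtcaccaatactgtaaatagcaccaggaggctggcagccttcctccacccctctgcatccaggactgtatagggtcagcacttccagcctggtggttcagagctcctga
The Six3 window held 1 FOXH1 match on the reverse strand, a motif present in 0.855% of 32851 promoter windows. The Cfc1 window held 1 GATA match on the reverse strand, a motif present in 11.2%. The Cer1 window held no match to the 5 motifs. SOX letters were in 31.0% of windows, TCF letters in 3.73% and T-box letters in 3.98%. These are matches of letters and not sites of binding.

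The 12 largest differences in the other direction, by the same rule for lines 2 and 5-1, in order, were Samd9l, Ifit3, Wnt8a, Fbln5, Dnm3os, Ccl7, Igfbp7, Col1a1, Col3a1, Ddr2, Ifi27 and Il1rl1. Wnt8a, a Wnt ligand of the posterior epiblast and streak, was at 0.842, 9.45 and 5.73 CPM in lines 4, 1 and 44 against 30.8 and 69.1. Samd9l, an interferon-induced gene, was at 0.513, 0.038 and 2.94 CPM against 10.5 and 10.98. Col1a1, a fibrillar collagen of fibroblasts, was at 104, 8.92 and 298 CPM against 306 and 758. Line 44 was next to line 2 for Col1a1, and line 1 was far below all others. Dnm3os lies antisense within another gene and Ifit3 has a near-identical copy, so both values are uncertain.

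Irradiated fibroblasts in the culture carry collagen transcripts of their own. Of 15 fibroblast genes, 5 were lower in lines 4, 1 and 44 and 0 higher, with a median difference of -2.24. Their summed level was 569, 132 and 1265 CPM in lines 4, 1 and 44 and 1306 and 3166 CPM in lines 2 and 5-1. None of the 15 was at 0 in any EpiSC library of the 5 lines. By this sum lines 4, 1 and 44 were lower, though lines 44 and 2 were alike, and line 1 was lowest and line 5-1 highest. By the mean log2 CPM of the list the sets overlapped, with line 44 at 4.70 and line 2 at 4.45. Of 15 interferon genes, in a list made after values were seen, 10 were lower and 0 higher, with a median of -2.06. The part of the fibroblast level in the differences between the sets in EpiSC was not tested.

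In DE the separation of the markers was small or gone. Sox17 was at 1142, 903 and 1416 CPM in lines 4, 1 and 44 and at 1378 and 1243 in lines 2 and 5-1, with overlap. Cer1 was at 7094, 5664 and 10355 CPM against 5948 and 3521, with overlap. Gata6 was at 435, 455 and 562 CPM against 337 and 344, with no overlap and a ratio of 1.41 between mean log2 levels. The DE libraries were not used to choose the sets, so the difference was tested in them.

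With edgeR's quasi-likelihood test on 19290 genes, 0 (0%) passed an adjusted p of 0.05 and 3053 had an unadjusted p under 0.05. DESeq2 with the same design called 494 genes, 195 higher and 299 lower in lines 4, 1 and 44. Leaving out line 5-1 gave 1773 calls with edgeR, 651 higher and 1122 lower, and leaving out line 2 gave 2. With all libraries and no filter on low counts edgeR called 1066, 344 higher and 722 lower. The count of calls thus depended on the tool, on the filter and on line 5-1. Without line 5-1, line 2 is alone in its set and is assumed to vary like the libraries of the other groups. The smallest adjusted p with all libraries was 0.0745, for Dkk3 and for Adamts1, and Sardh followed at 0.0788. These 3 genes are named because of these values.

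Adamts1, a secreted metalloprotease, was at 16.6, 25.5 and 19.5 CPM in DE of lines 4, 1 and 44 and at 3.91 and 4.29 in lines 2 and 5-1. Its fitted difference was 2.32 ± 0.34 (log2, SE, n = 3 and 2 lines), adjusted p = 0.0745 by edgeR and 5.617e-08 by DESeq2. In the DE fits to all libraries the spread was estimated over the 17 DE libraries of all strains. With the 5 C57BL/6J DE libraries alone edgeR called 0 genes. Adamts1 then had a difference of 2.27 and an adjusted p of 0.3795 by edgeR. In EpiSC the gene overlapped between the sets, at 13.6 to 15.9 CPM against 13.2 and 18.7. Dkk3, a secreted protein of the Dickkopf family, had 0 counts in DE of lines 4, 1 and 44 and 46 and 59 counts in lines 2 and 5-1. With a floor of 3 counts over the set, Dkk3 was at least 46.8-fold lower in lines 4, 1 and 44. Sardh, the mitochondrial sarcosine dehydrogenase, had 0 counts against 24 and 36 and was at least 26.7-fold lower.

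**Figure D3:**
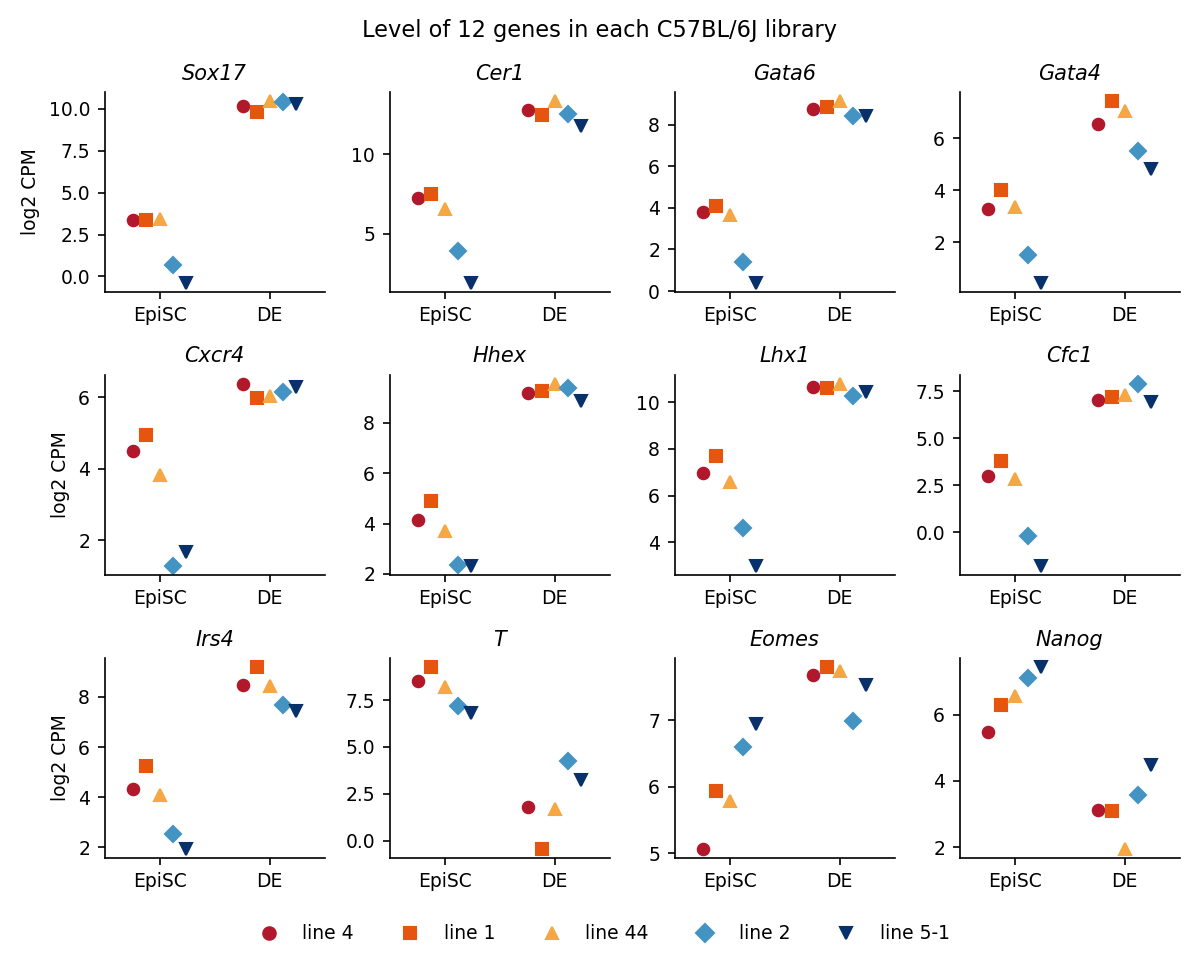
Log2 CPM (y axis) of 12 genes in EpiSC and DE (x axis) of each C57BL/6J line, 1 point per library. Gata4 and Irs4 keep the order of the sets in DE and T reverses it. Sox17, Cer1, Cxcr4, Hhex and Cfc1 overlap in DE.

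Gata4 kept its order and differed by more than 2-fold in DE, where Gata6, Lhx1 and Prdm1 kept theirs with smaller differences. In DE Gata4 was at 93.8, 171 and 132 CPM in lines 4, 1 and 44 and at 44.9 and 27.8 in lines 2 and 5-1. The fitted difference was 1.87 ± 0.48 (log2, SE), adjusted p = 0.210 by edgeR and 0.0126 by DESeq2. The sets did not overlap for Gata4 in either cell type. In the 12 DE libraries of other strains Gata4 ran from 48.0 to 242 CPM, so lines 2 and 5-1 lay below all 12.

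Of the 18 definitive endoderm genes, 2 were higher in DE by the rule of no overlap and at least 2-fold, Gata4 and Frem2, and Sp5 was lower. Over all 19290 genes, 758 (3.93%) were higher and 853 (4.42%) lower by that rule. The list had a median difference of 0.05, and 9 members had a positive and 9 a negative difference. Cxcr4, on which the cells were sorted, was at 62.9 to 82.4 CPM in the first set and 71.2 and 78.0 in the second. Hhex was at 585, 610 and 745 CPM against 660 and 473. Lhx1 was at 1596, 1551 and 1753 CPM against 1215 and 1372, with no overlap and a difference of 0.34. Prdm1, a transcriptional repressor, was at 134, 187 and 135 CPM against 63.5 and 111, and its fitted difference of 0.80 ± 0.31 had an adjusted p of 0.253 by edgeR.

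Of the anterior antagonists 0 of 8 were higher or lower in DE, and of the Nodal pathway 0 of 12. Sfrp1, which lies on chromosome 8, was at 1633, 2086 and 2250.2 CPM against 940.3 and 1309.6, with no overlap and a difference of 0.83. Dkk1, which was higher in EpiSC of lines 4, 1 and 44, was at 224, 213 and 272 CPM in DE against 693 and 263. Line 2 alone was high for Dkk1.

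T reversed its order between the cell types. In DE it was at 3.45, 0.686 and 3.17 CPM in lines 4, 1 and 44 and at 18.7 and 9.37 in lines 2 and 5-1. The fitted difference was -2.52 ± 0.64 (log2, SE), adjusted p = 0.205 by edgeR. Evx1, a homeobox factor of the posterior streak, and Noto also reversed, and 2 of 11 streak genes that passed the filter were lower in DE and 0 higher. Nanog kept its order, at 8.73, 8.56 and 3.84 CPM against 11.9 and 22.1, with a fitted difference of -1.27 ± 0.44 and an adjusted p of 0.220. Pou5f1 was at 1.84, 1.16 and 0.861 CPM in lines 4, 1 and 44, at 12.4 in line 2 and at 1.15 in line 5-1. Higher values of T and Nanog were thus shared by lines 2 and 5-1, and that of Pou5f1 was in line 2 alone.

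Of the 880 genes higher in EpiSC of lines 4, 1 and 44, 785 passed the filter in DE. In DE 82 of these (10.45%) were again higher and 48 (6.115%) were lower, beside 3.93% and 4.42% of all genes. The 82 became 148 without line 5-1 and 258 without line 2. Their median difference was 1.55 in EpiSC and 0.20 in DE, and 471 of the 785 had a positive difference in DE, beside 51.6% of all genes. Of the 513 genes lower in EpiSC, 386 passed the filter in DE. In DE 65 of these (16.84%) were again lower and 17 (4.40%) were higher. The 65 became 196 without line 44, 238 without line 5-1 and 266 without line 2. With a line left out, fewer values must not overlap. Their median difference was -1.49 in EpiSC and -0.46 in DE, and 252 of the 386 (65.3%) had a negative difference in DE, beside 48.4% of all genes. None of the 82 or 65 genes passed edgeR's adjusted p of 0.05 in DE. An unadjusted p under 0.05 by edgeR in the EpiSC direction was found there for 73 of the 785 and 62 of the 386. Over all 19290 genes, 1437 had such a p in the higher direction and 1616 in the lower. Across 16573 genes measured in both cell types, Pearson's r between the differences was 0.199, a description over genes that are not independent and that come from the same 5 lines.

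**Figure D4:**
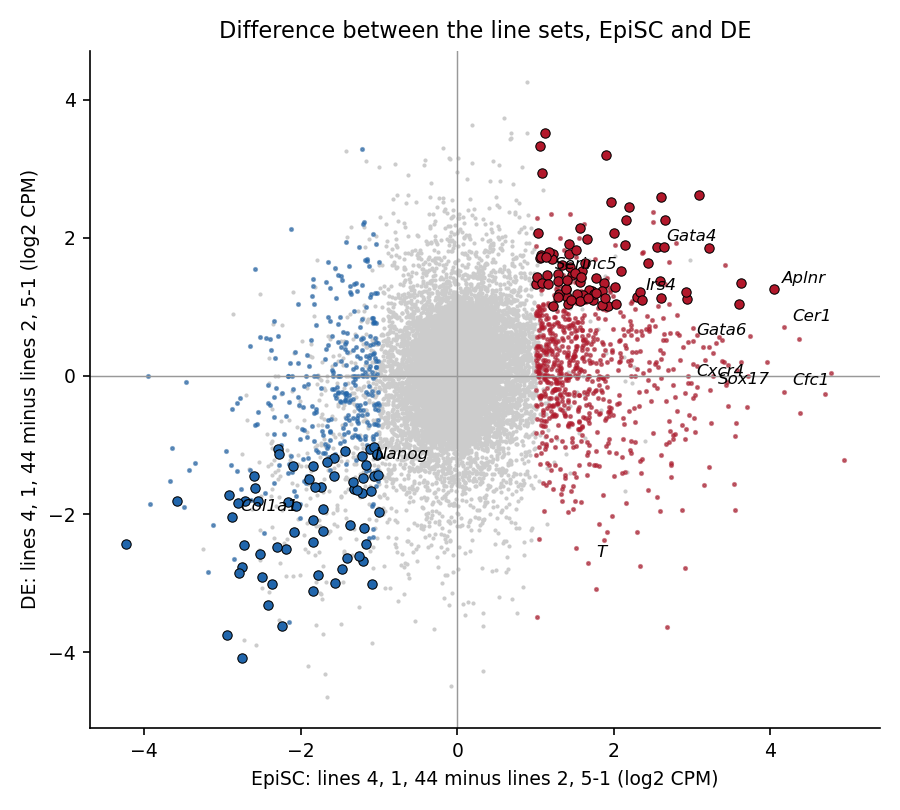
Difference of mean log2 CPM between lines 4, 1 and 44 and lines 2 and 5-1 in EpiSC (x axis) and in DE (y axis), 1 point per gene (16573 genes). Red and blue points were higher (880) or lower (513) in EpiSC where measured in DE, and outlined points were so again in DE (82 and 65). Most red points lie near 0 on the y axis.

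Genes with the same order in both cell types are named by the size of their difference in DE, with a mean of at least 3 on the log2 CPM scale in the higher set of each cell type, a ranking added after values were seen. Those higher in both were, in order, Gata4, Chrnb4, Rbm20, Lcp1, Serinc5, Ccdc114, Sez6, Fgd5, Aplnr, Sec14l2, Plekhh1 and Irs4. Chrnb4, a subunit of nicotinic acetylcholine receptors, was at 80.2, 92.1 and 131 CPM in DE against 26.2 and 32.4. Serinc5, a membrane protein known to restrict retroviruses, was at 33.7, 69.9 and 57.4 CPM in DE against 18.2 and 19.1. Its fitted difference was 1.53 ± 0.33 with an adjusted p of 0.173 by edgeR. Lcp1, an actin-bundling protein, was at 31.7, 20.7 and 30.0 CPM against 11.3 and 6.13. Irs4, an adaptor of insulin signalling, was at 350.1, 581 and 346 CPM against 203 and 171. Aplnr kept its order in DE at 26.6, 11.5 and 14.8 CPM against 5.89 and 8.01.

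Those lower in both were Col1a1, Thbs2, Postn, Bst2, Nanog, Pcolce and Arhgdib. Col1a1, Thbs2, Postn and Pcolce are genes of extracellular matrix that fibroblasts express. Col1a1 was at 12.1, 2.98 and 6.26 CPM in DE of lines 4, 1 and 44 and at 36.7 and 17.5 in lines 2 and 5-1. In DE the summed level of the 15 fibroblast genes was 143, 113 and 126 CPM in lines 4, 1 and 44 and 328 and 150 CPM in lines 2 and 5-1, with 6 of 15 lower and 0 higher. Thy1, Lum, Dcn, Tagln and Twist2 were each at 0 in at least 1 of the 5. The fibroblast level as a covariate was an alternative chosen after seeing the data. With it 0 genes passed edgeR's adjusted p of 0.05 in DE and 1221 had an unadjusted p under 0.05, in place of 3053. That level, the mean log2 CPM of the list, was 0.52, -0.57 and 0.50 in DE of lines 4, 1 and 44. In lines 2 and 5-1 it was 2.33 and 0.91, with no overlap. Level and line set thus varied together, so the fit cannot divide a difference between them, and the part of the fibroblast level was not tested. Bst2, which encodes tetherin and lies on chromosome 8, was at 7.90, 11.6 and 10.7 CPM against 26.3 and 39.9, with a fitted difference of -1.72 ± 0.36 and an adjusted p of 0.173 by edgeR.

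Chromosome 8 was high in DE of line 5-1. Of 503 chromosome 8 genes with a mean of at least 3 on the log2 CPM scale, 337 (67.0%) were highest of the 5 lines in line 5-1. Against the median of the other 4 lines, a measure added after values were seen, the median of the chromosome was 1.42-fold higher. In EpiSC of line 5-1 that ratio was 1.03 and 25.7% of the genes were highest there. The DE libraries of other strains had chromosome 8 medians from -0.089 to -0.0295 against the C57BL/6J median. Of the genes lower in DE of lines 4, 1 and 44 that had a position, 8.26% lay on chromosome 8, against 1.51% of those higher and 5.16% of all.

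**Figure D5:**
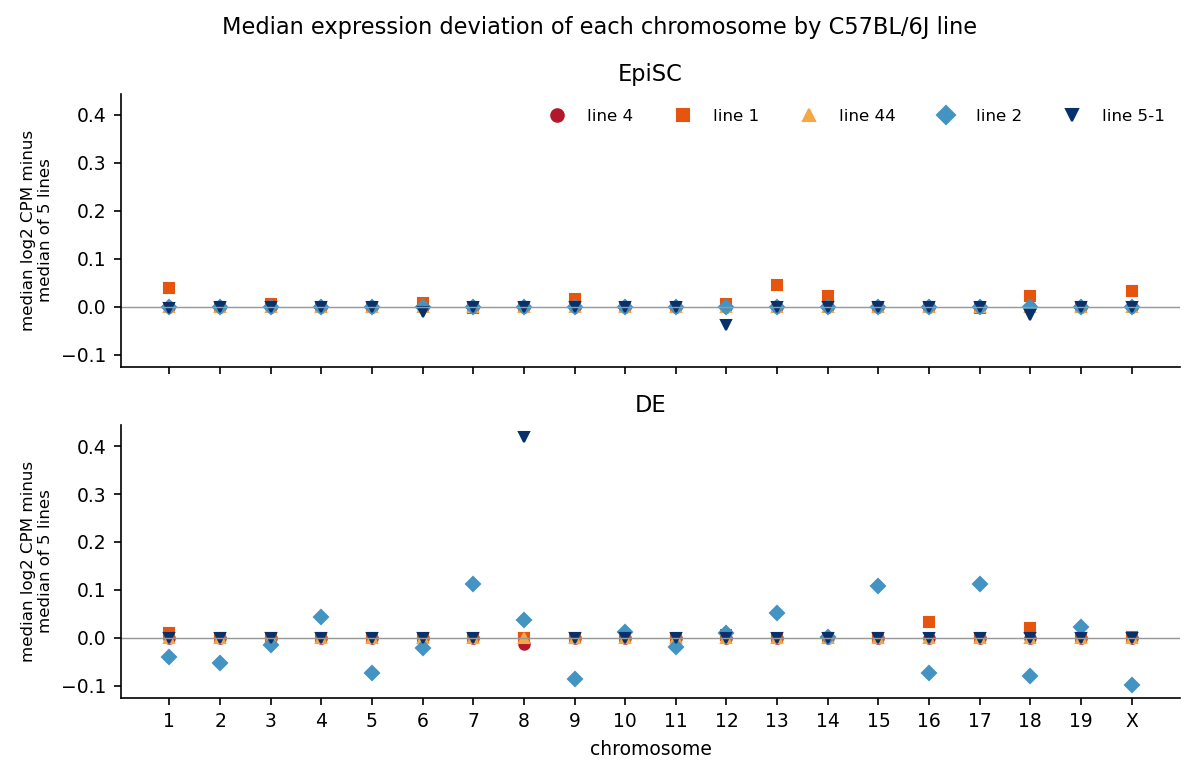
Median over the genes of each chromosome (x axis) of log2 CPM minus the median of the 5 C57BL/6J lines (y axis), in EpiSC and DE, 1 point per line. In DE line 5-1 lies at 0.42 on chromosome 8. The next largest deviation is 0.11, in line 2 on chromosome 17.

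Genes that follow the 3 markers were then looked for in libraries that the choice of lines did not use. In the 12 EpiSC libraries of the other strains, each gene was tested for a slope on the marker level within strains. Within strains the marker level varied most in NOD/ShiLtJ, at 0.97 and 2.09, and in PWK/PhJ, from 2.34 to 3.43. It varied little in CAST/EiJ and WSB/EiJ, and DBA/2J, with a single library, added nothing to the slope. With edgeR's quasi-likelihood test 0 of 17450 genes (0%) passed an adjusted p of 0.05. An unadjusted p under 0.05 was found for 680, fewer than chance alone gives on average at that threshold. DESeq2 also called 0, with 671 at an unadjusted p under 0.05. Without the PWK/PhJ line AC695, 9 genes had a positive slope at an adjusted p under 0.05. Without the strain term, so that differences between strains entered, 1165 genes were called, 843 with a positive and 322 with a negative slope.

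Cfc1 had the smallest p of all genes, with a slope of 1.13 ± 0.20 (log2 per unit of marker level, SE) and an adjusted p of 0.852 by edgeR. Over the 12 libraries Cfc1 ran from 0.448 to 22.5 CPM with a median of 2.00. Cxcr4 had the third smallest p, with a slope of 0.75 ± 0.15 and the same adjusted p. Lcp1 came sixth, with a slope of 0.54 ± 0.13. These genes are named because of their small p. Irs4, Samd3 and Tph1, which were higher in lines 4, 1 and 44, came at ranks 14, 17 and 26. Six3 came at rank 16028 with a slope of 0.08 ± 0.64. Aplnr and Shh had slopes of 0.26 and 0.45, with unadjusted p of 0.714 and 0.338.

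Among definitive endoderm genes 14 of 18 had a positive slope and 0 passed the adjusted p, with a median of 0.30 beside 0.0063 over all genes. Of the 778 genes higher in lines 4, 1 and 44 that were tested, 66.8% had a positive slope, beside 51.5% of all genes, and 69 (8.87%) had one with an unadjusted p under 0.05, beside 2.09%. Of the 499 lower genes 78.8% had a negative slope, beside 48.5%, and 31 (6.21%) had one with an unadjusted p under 0.05, beside 1.81%. Across 17450 genes Pearson's r between the C57BL/6J difference and the slope was 0.350, as a description. All 15 fibroblast genes had a negative slope, with a median of -0.76 and 0 passing the adjusted p. The part of the fibroblast level in the slopes was not tested.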

How the data were processed

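RNA was sequenced from EpiSC and DE, 17 libraries of each. The authors deposited read counts per gene, whole numbers with no normalization, for 53655 genes. Per the submitters' processing notes, STAR 2.4, HTSeq 0.6.1, DESeq2 and the mm10 build were used. Which annotation release and strand setting were chosen is not given in the sources used here.

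Counts were scaled by TMM. Genes were kept where 3 or more of the 17 libraries of a cell type had 10 counts or more, and log2 CPM used a prior count of 2. Printed CPM values carry no prior. The DE sets were compared with edgeR 4.0.16 in R 4.3.3 (robust quasi-likelihood F test, Benjamini-Hochberg adjustment over all genes, threshold 0.05) with 1 mean per strain and 2 for C57BL/6J. The slope was fitted with strain as a term on 12 EpiSC libraries, and without the 3 markers. For the slope, scaling used these 12 libraries alone, and genes were kept where 3 or more of the 12 had 10 counts or more. Both fits were run on simulated data with the same spread for every gene. Those runs do not measure how many real differences the fits could find here. DESeq2 1.42.0 was an alternative. Lines are separate lines by label, and p-values measure the spread between libraries. Without molecular identifiers, PCR copies count as separate reads, so the floor of 3 counts covers counting error only.

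Genes named by rank were the 12 largest EpiSC differences each way, with predicted genes passed over. The members and the gene lists were chosen with earlier results of these data known, and the slope and DE rankings by rule named no gene because none was called. Lists of node and notochord, motile cilia and interferon response were added after values were seen. Gene positions are from GENCODE M21 (GRCm38). Promoter windows were found for 33 of 42 symbols looked up. Sox17 and Gata6 were not among the 33.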

Additional observations from a re-analysis of the deposited data

Results flagged for a closer look

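Values that stood apart are given here with no explanation. Among 106 sets of 5 lines looked at, 8 had 1 line far from the other 4 by Dixon's criterion at 95%, which chance alone gives in about 1 in 20. In DE of line 5-1 the Nodal pathway list had a mean log2 CPM of 7.30, against 7.71 to 7.86 in the other lines. The neuroectoderm list was at 1.24 there, against 1.95 to 2.23. The chromosome 8 median of that library was 0.42, against -0.01 to 0.04.

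In DE of line 2 the interferon list was at 0.80, against -0.92 to -0.59 in the other lines. Dkk1 was at 9.44 log2 CPM in line 2, against 7.74 to 8.09. Ifit3 was at -1.12 in line 2, from 9 counts, and had 0 counts in the other 4. Wnt8a was at -1.62 in line 2, from 6 counts, against 2 or fewer counts in each other line. Il1rl1 was at -4.16 in line 44, which is 0 counts, against -0.62 to 0.10 in the other lines.

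For 6 of 229 genes looked at, the sets were apart in opposite directions in EpiSC and DE. The difference between the cell types was not tested. Among all 16573 genes measured in both, 48 of the 785 higher in EpiSC were lower in DE. Of the 386 lower in EpiSC, 17 were higher in DE. In DE the value of lines 4, 1 and 44 minus that of lines 2 and 5-1 was -1.81 for Sp5, -2.71 for T, -1.02 for Evx1, -1.94 for Noto, -1.83 for Dnaic2 and -1.58 for Cfap44. In EpiSC it was 1.34, 1.66, 1.47, 3.55, 2.16 and 3.16. Cfap44 had 0 counts in DE of lines 4, 1 and 44 and 6 and 2 counts in the others. Dnaic2 and Noto had at most 46 counts in any of the 5 DE libraries.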

How the results depend on the processing

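In DE the count of genes passing the threshold was 0 with edgeR, 494 with DESeq2 and 1066 without the filter on low counts, and from 0 to 1773 when 1 library was left out, 1773 being without line 5-1. For the slope in other strains it was 0, against 1165 without the strain term and 0 to 9 when 1 library was left out. The 1393 genes apart in EpiSC became 382 at 4-fold and 1375 to 2489 without 1 line. Genes higher in both cell types, 82, became 6 at 4-fold and 90 to 258 without 1 line. Those lower in both, 65, became 15 at 4-fold and 83 to 266 without 1 line. With 1 library fewer there are fewer values that must not overlap. The largest counts were without line 2, but 1 line was then alone in its set. The DE difference of Sox17 turned from -0.18 to 0.094 with the fibroblast level as a covariate, and neither value passed the threshold. The cause of these changes was not tested. The DE values looked at in this way were those of Sox17, Cer1, Gata6, Gata4, Cxcr4, Nanog, Irs4, Dkk3, Adamts1 and Sardh. Each value is 1 gene under 1 alternative setting. Of the other values 213 kept their direction and side of the threshold and 13 newly passed it. Further genes with DE values given here, such as T and Prdm1, were not included. No paired analysis was possible because the sets hold different lines. Line 2 in DE had 24.0 M (mega) counts and line 5-1 67.7 M, so genes of few counts are less precise in line 2.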

Other observations

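Olig1, a helix-loop-helix factor of the oligodendrocyte lineage, was at 51.2, 38.6 and 3.72 CPM in EpiSC of lines 4, 1 and 44 and at 33.1 and 47.4 CPM in lines 2 and 5-1. In the 12 EpiSC libraries of other strains it ran from 0 to 0.690 CPM, so all 5 C57BL/6J lines lay above all 12. Its neighbour in function Olig2 was at 0.421 to 6.36 CPM in the C57BL/6J lines and at 0 to 0.069 CPM in the others. Both genes were chosen after their values were seen, and neither separated the sets.

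Kdm5d, a histone demethylase gene of the Y chromosome, was at 13.7, 37.9 and 2.30 CPM in EpiSC of lines 4, 1 and 44 and at 1.69 and 17.3 CPM in lines 2 and 5-1. In DE it was at 1.64, 14.1 and 0.509 CPM and at 0 and 26.3 CPM. Uty, another Y-linked demethylase gene, was at 23.9, 39.7 and 8.73 CPM in EpiSC of lines 4, 1 and 44 and at 30.6 and 33.6 CPM in lines 2 and 5-1. In DE Uty was at 50.9, 53.2 and 20.7 CPM and at 19.3 and 56.9 CPM. Lines 44 and 2 thus had low Kdm5d in both cell types and line 4 in DE, while Uty was detected in all 10 libraries. These genes were also chosen after their values were seen.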
